A study of Mus musculus with 2 samples.

Results

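Aire and the genes of 5 of its chromatin partners, Top1, Sirt1, Chd4, Kmt2a and Hipk2, were followed across the thymic epithelial cells (TECs) of irradiated and control mice. These 6 genes were chosen by name, out of 32285 listed genes, because their products act with or on AIRE in the nucleus. All 6 had unique molecular identifier counts (UMIs, the number of distinct captured RNA molecules) in both libraries. Over both libraries 56991 UMIs of Aire, 25214 of Top1, 21498 of Sirt1, 16360 of Chd4, 13950 of Kmt2a and 8195 of Hipk2 were counted. Among the 5 partners, Sirt1 stood apart. Its RNA was highest in 3 of the 5 clusters with most Aire. Over the 10 clusters of 100 or more cells per library, its level differed by 17.3-fold in the control and by 20.2-fold in the irradiated library, whereas that of no other partner spanned more than 3.81-fold.

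AIRE is a nuclear protein of medullary TECs (mTECs) that lets these cells transcribe a large set of genes otherwise restricted to peripheral tissues, so that developing T cells meet the corresponding self-antigens. It has no known sequence preference of its own and works through partners at chromatin. Topoisomerase 1, encoded by Top1, cuts and rejoins a DNA strand and is found with AIRE at super-enhancers. SIRT1 is an NAD-dependent deacetylase that removes acetyl groups from AIRE and is needed for its activity. CHD4 is the remodelling ATPase of the NuRD complex, KMT2A (MLL1) is a histone H3 lysine 4 methyltransferase, and HIPK2 is a nuclear kinase that phosphorylates AIRE.

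The cells were TECs of C57BL/6 mice, isolated from digested thymus by sorting for EPCAM+ CD45- cells without the marker of red cell precursors. One library came from mice 15 days after a sublethal dose of radiation, and the other from unirradiated mice. The labels give an age of 9 weeks, while their dissection protocol speaks of 4 weeks. Each library was a pool of 3 mice, so there was 1 library per condition and no replicate. No test between conditions was possible, and intervals here cover counting error only. The deposited labels and the names of the matrices went against each other. The library used here as the control is labelled as radiation, and the library used as irradiated is labelled as control. They were assigned by the matrix names, since the study counts more irradiated cells than the smaller library has barcodes. Were the labels right, every direction given below between the libraries would reverse, whereas the comparisons between cells would stand in each library by itself.

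The control library held 4937 barcodes and the irradiated library 7167. Cells with more than 2000 and fewer than 7500 detected genes and under 15% mitochondrial UMIs were kept, which left 3233 control and 5070 irradiated cells with medians of 13412 and 13003.5 UMIs. Of the kept cells, 5 barcodes occurred in both libraries. The cells fell into 14 clusters, C0 to C13, found without the 6 genes and without the other listed partner genes. C6 (190 control and 483 irradiated cells, led by Ube2c and Ccnb1) was TA-mTEC-like, the proliferating transit-amplifying stage. C7, led by Psmb11 and Prss16, was cTEC-like (cortical). C9, led by Rgs13 and Trpm5, was tuft-like, a mimetic mTEC with genes of chemosensory epithelium. C12, with 24 and 18 cells, was neuroendocrine-like. The others are given by number and leading genes. These are C0 (Ccl11, Col6a2), C1 (S100a9, S100a8, Calca), C2 (Lypd8, Ccl9, Muc13), C3 (Prelp, Serpinf1), C4 (Atf3, Adamts1), C5 (Ung, Mcm3), C8 (Tmem158, Mamstr, Fgf21), C10 (Bpifa1, Spink5), C11 (thymocyte genes, Trbc1 and Rag1) and C13 (Dynlrb2, Meig1). Epcam ranged from 2.20 UMIs per 10000 in the control and 2.14 in the irradiated library in C11 to 11.27 and 14.16 in C9. Ptprc, which encodes CD45, was at 2.28 and 2.75 in C11 and at 0.57 and 0.67 in C9, and was at most 0.17 in either library in the others.

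Levels are given as the UMIs of a gene summed over the cells of a cluster per 10000 summed UMIs of those cells, with exact Poisson intervals of 95%. They compare a gene with itself between groups of cells, and a lower level in a cluster can come from fewer expressing cells or from less RNA per cell. For shares of cells with a UMI, each cell was first thinned at random to 4000 UMIs, because the cells of C6 were deeper (medians of 29386 and 23943 UMIs) than those of C0 (10254 and 9717.5).

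Aire (ENSMUSG00000000731) lies on chromosome 10 from 78030022 to 78043610, on the minus strand, in GRCm38. The promoter windows of Aire, Sirt1 and Top1 are shown first, since Aire is the gene the cells are ordered by, and Sirt1 and Top1 are the partners whose levels over the clusters correlated with it most positively (0.862) and most negatively (-0.729). Each is the 250 bases before the RefSeq start (GRCm38.p6), read 5′ to 3′ on the strand of the gene. Capitals mark the TATA box (TATAAA), the CCAAT box (CCAAT) and the GC box (GGGCGG), each searched on both strands. The windows lie at chr10:78043611-78043860 (minus strand), chr10:63339036-63339285 (minus strand) and chr2:160645647-160645896 (plus strand).
Aire: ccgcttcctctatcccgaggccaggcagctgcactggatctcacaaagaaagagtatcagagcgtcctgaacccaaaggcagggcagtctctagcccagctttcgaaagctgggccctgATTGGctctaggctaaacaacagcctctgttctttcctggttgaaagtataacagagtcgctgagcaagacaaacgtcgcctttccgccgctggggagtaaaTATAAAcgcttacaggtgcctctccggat
Sirt1: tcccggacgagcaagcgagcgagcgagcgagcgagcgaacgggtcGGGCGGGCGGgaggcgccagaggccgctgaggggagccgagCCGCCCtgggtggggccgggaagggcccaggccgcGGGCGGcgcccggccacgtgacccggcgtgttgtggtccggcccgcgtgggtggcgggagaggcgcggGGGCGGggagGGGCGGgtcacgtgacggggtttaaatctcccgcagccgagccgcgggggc
Top1: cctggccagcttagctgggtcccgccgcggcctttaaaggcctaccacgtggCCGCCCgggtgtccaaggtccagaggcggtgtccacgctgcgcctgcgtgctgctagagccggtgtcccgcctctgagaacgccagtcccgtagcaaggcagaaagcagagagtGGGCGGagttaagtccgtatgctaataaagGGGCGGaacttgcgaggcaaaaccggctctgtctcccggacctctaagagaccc
The Aire window held 1 TATA box, 1 CCAAT box, no GC box and 11 CpG. The Sirt1 window held 6 GC boxes, of which the first pair overlap, and 39 CpG, a count at the 98.4 percentile of 32851 mouse promoter windows. The Top1 window held 3 GC boxes and 20 CpG. Kmt2a had 29 CpG and 4 GC boxes, Chd4 had 12 and 23 CpG before its 2 starts, and Hipk2 had 43 and 1. Over all windows, 12.4% held the TATA letters, 32.7% the GC box and 33.8% the CCAAT box, and the median was 6 CpG. The E2F letters TTTCGCGC were found in 0.256% of all windows and in none of the members. Among the 6 genes, only Aire had the TATA letters. These matches describe the letters and no site was tested.

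Aire RNA was highest in C8, at 12.67 UMIs per 10000 in the control and 11.72 in the irradiated library, and in C1, at 10.59 and 11.39. It was intermediate in the TA-mTEC-like C6, at 5.77 and 5.46, and in C2, at 3.76 and 4.90, and lower in the S-phase-rich C5, at 2.30 and 2.28. Pooled over both libraries the order was C8 (12.09), C1 (11.04), C6 (5.56), C2 (4.34), C5 (2.28) and C13 (1.39 from 20 cells), with no overlap of intervals between neighbours. Within the irradiated library, C1 and C8 did not differ beyond counting error, with a log2 ratio of -0.04 (-0.10 to 0.01). From C10 (0.41) down to C11 (0.06), neighbours in the order overlapped. A UMI of Aire was found in 91.5% and 93.3% of thinned C8 cells, 86.6% and 90.7% of C1 cells and 69.0% and 62.3% of C6 cells. In cTEC-like cells, which should lack it, the shares were 3.33% and 3.11% at median depths of 15053 and 13941 UMIs, against 18342 and 15729.5 in C1. Those of C0 (4.38% and 2.34%) and C3 (2.72% and 4.78%) were of the same order, and where these UMIs came from was not tested. Without thinning the shares in cTEC-like cells were 7.33% and 7.91%.

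**Figure D1:**
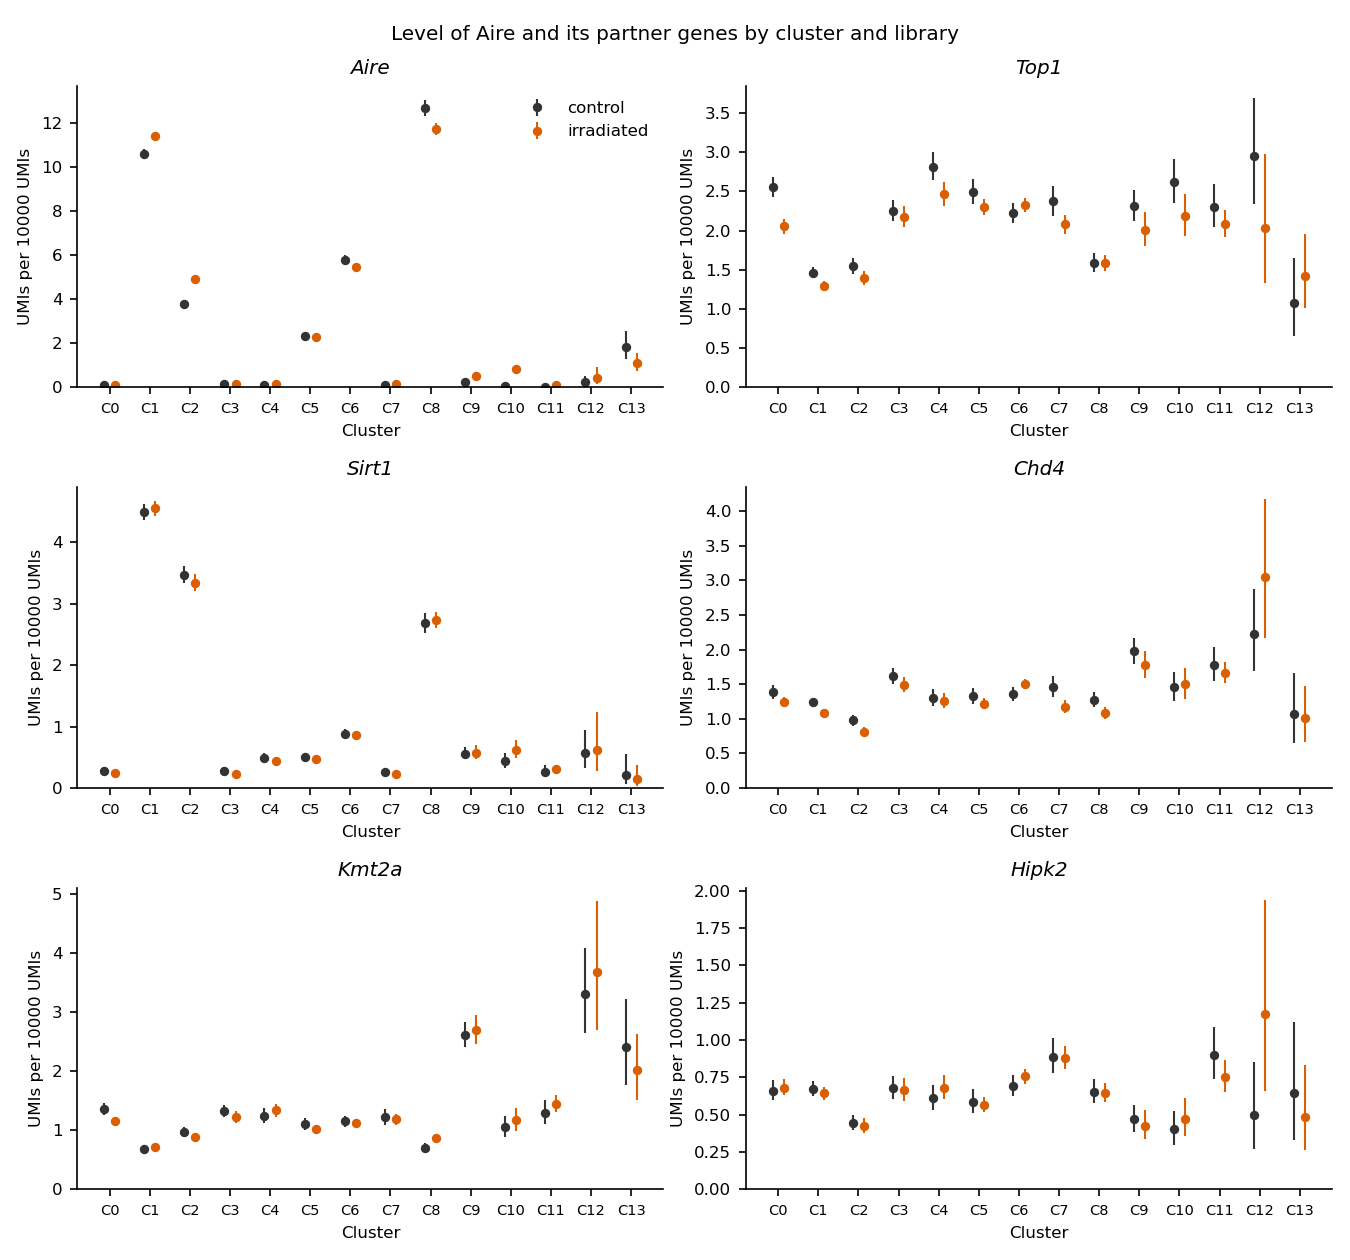
Level of each of the 6 genes, as UMIs per 10000 UMIs, in clusters C0 to C13 of the control and irradiated libraries. Points are summed UMIs and bars exact Poisson intervals of 95%, with each gene on its own scale. Aire and Sirt1 vary most over the clusters.

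Cells of a single cluster differed widely in Aire. In C1 the median cell held 17 Aire UMIs in each library, and the 10% of cells with most Aire held 27.6% of the cluster's Aire UMIs in the control and 26.6% in the irradiated library. In C5 the median cell held 0 and 1 UMIs, and the same 10% held 62.6% and 62.4%. The Aire RNA of C5 thus came mostly from few of its cells, in both libraries.

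In C7, C9 and C10, all low in Aire, a few cells held most of it. In the cTEC-like C7, the 5 cells with most held 22 of 28 Aire UMIs in the control. In the irradiated library they held 60 of 86. The tuft-like C9 had 49 Aire UMIs in 153 control cells and 84 in 147 irradiated cells, of which 33 and 65 were in the 5 cells with most. In C10, 91 control cells held 5 Aire UMIs and 93 irradiated cells held 99, of which 70 were in 5 cells. Without the 5 cells with most Aire UMIs in each library, an alternative chosen after seeing these values, the levels in C10 were 0 and 0.26. Only 4 control cells of C10 held an Aire UMI, so the 0 of the control was fixed in advance.

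Aire also differed with the cell cycle phase, called from S and G2/M gene lists. In C5 it was 3.20 in S-phase cells against 1.31 in G1 and 0.89 in the 28 cells in G2/M. The order of S over G1 held in the control (3.67 and 0.77) and in the irradiated library (2.98 and 1.57). In C6, which had no cell called G1, Aire was 4.54 in S and 5.78 in G2/M. In C8 the order was opposite, with 13.4 in G1, 10.8 in S and 7.78 in G2/M, the last from 62 cells. The fall from G1 to G2/M in C8 was smaller with phases called from summed UMIs, as given below. S-phase cells were deeper than G1 cells in C5 (medians of 18238 and 12738 UMIs), a difference whose part in the result was not tested. C1 showed no such spread, with 10.998 in G1, 11.3 in S and 11.2 in G2/M.

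**Figure D2:**
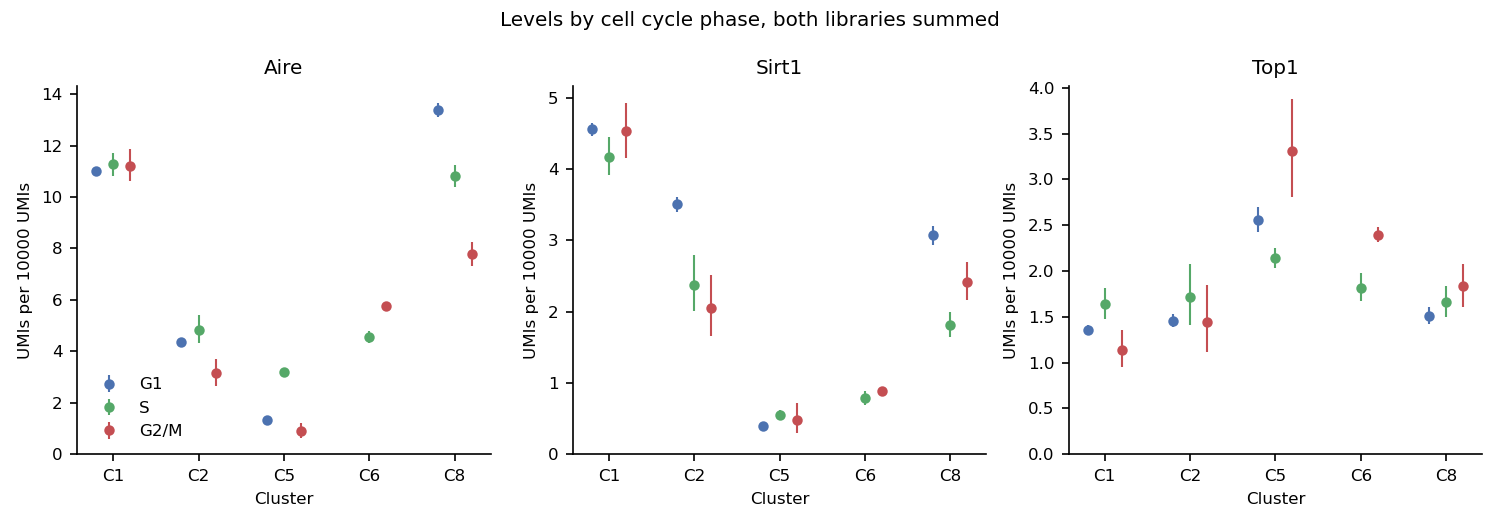
Level of Aire, Sirt1 and Top1 by cell cycle phase within clusters C1, C2, C5, C6 and C8, as UMIs per 10000 UMIs with exact Poisson intervals of 95% (both libraries pooled). Aire is highest in S phase in C5 and highest in G1 in C8.

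The genes whose pattern was most like that of Aire were named by Pearson correlation of log2(UMIs per 10000 + 0.1) over 22 points, from 2 libraries and 11 clusters of 50 or more cells in each. The points of a library share its depth, and those of a cluster share its definition. Among 12594 genes the 5 highest were Ntn5 (r = 0.985), Arsb (0.983), Snx8 (0.974), Hdc (0.972) and Ogfrl1 (0.968). Ntn5 encodes a netrin-like secreted protein, Arsb a lysosomal sulfatase, Snx8 a sorting nexin and Hdc histidine decarboxylase, which makes histamine. None lies on chromosome 10. Hdc stood at 6.74 and 6.42 UMIs per 10000 in C1, at 7.04 and 5.87 in C8 and at 0.05 and 0.09 in C7. Of the partners, Sirt1 correlated with Aire at 0.862, rank 289 among all genes. Top1 (-0.729, rank 11233), Kmt2a (-0.606, rank 10077) and Chd4 (-0.486, rank 9004) had negative values, and Hipk2 was at -0.047 (rank 5826). Ranks count from the most positive of the 12594 genes, so many genes were more negative than these.

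The Dnmt3l gene overlaps Aire on the opposite strand and had 3041 UMIs, 2015 of them in C1. Whether the counting used strand is not given in the sources used here, and reads from the shared stretch were not examined.

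Top1 (ENSMUSG00000070544; chromosome 2, 160645888 to 160722764, plus strand in GRCm38) was expressed in every cluster. Pooled over both libraries, it was lowest in C13, C1, C2 and C8. This set was not simply that of the clusters high in Aire. C6 had more Aire (5.56) than C2 (4.34) but was not in it, and C13 was in it with Aire at 1.39. Top1 stood at 1.46 in the control and 1.30 in the irradiated library in C1, at 1.55 and 1.39 in C2 and at 1.59 and 1.58 in C8. In the TA-mTEC-like C6 it was 2.22 and 2.33, in C5 2.50 and 2.30, in C4 2.82 and 2.46 and in cTEC-like cells 2.38 and 2.08. Pooled, 10 clusters lay between 2.15 and 2.65 with overlapping neighbours. A gap without overlap separated them from C8 (1.58), C2 (1.47), C1 (1.37) and C13 (1.28). C1 was thus lower than C6 by a log2 ratio of -0.74 (-0.84 to -0.65), with -0.61 in the control and -0.84 in the irradiated library. By phase, Top1 was higher in G2/M than in S in C5 (3.31 and 2.14) and in C6 (2.40 and 1.82). The order was opposite in C1 (1.14 and 1.64), with 64 cells in G2/M. In C2 (1.45 and 1.72) and C8 (1.83 and 1.66) the intervals overlapped. Among the genes most like it were Xpo7 (r = 0.928), encoding a nuclear exportin, and Hnrnph1 (0.902), encoding an RNA-binding protein, over the same 22 points.

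Between C1 and C6, 4 of the 6 members passed a fold of 1.5, with Sirt1 and Aire higher and Top1 and Kmt2a lower in C1, while 55.5% of all genes tested passed it, 37% as higher and 18.5% as lower. With so many genes past the fold, the members' count is not a result about the members, and their values are given as levels. C1 and C6 also differed in phase. No C6 cell was called G1, against 89.0% of control and 83.9% of irradiated C1 cells. The part of phase in the contrasts with C6 was not tested. Of the other topoisomerases, 0 of 5 were higher and 3 lower in C1, led by Top2a, the replication-linked type II enzyme, at 0.20 against 7.09 (log2 -5.13). Of 6 genes that sense DNA breaks, Prkdc was higher in C1 (0.71) and 5 were lower. C8 against C6 gave Sirt1 (1.64) and Aire (1.12) as higher and Top1 as -0.53, with 32.5% of all genes past the fold, 14.7% as higher and 17.9% as lower.

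Sirt1 (ENSMUSG00000020063; chromosome 10, 63319005 to 63381704, minus strand in GRCm38) was highest in 3 clusters. It stood at 4.48 in the control and 4.55 in the irradiated library in C1, at 3.47 and 3.34 in C2 and at 2.69 and 2.73 in C8. In C6, where Aire was higher than in C2, Sirt1 was at 0.88 and 0.86. It was 0.50 and 0.47 in C5, 0.56 and 0.57 in tuft-like cells and 0.26 and 0.24 in cTEC-like cells. After thinning, a Sirt1 UMI was found in 66.5% and 63.9% of C1 cells and in 11.3% and 9.04% of cTEC-like cells. Pooled, the first 3 clusters did not overlap with each other or with C6. C1 was higher than C6 by a log2 ratio of 2.38 (2.28 to 2.48), against 0.99 (0.94 to 1.04) for Aire.

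The ranks of Sirt1 and Aire thus differed among the Aire-expressing clusters. Per 100 Aire UMIs, there were 15.3 (13.9 to 16.8) control and 15.8 (14.8 to 16.9) irradiated Sirt1 UMIs in C6, 21.2 and 23.3 in C8, and 21.6 and 20.7 in C5. In C1 the values were 42.3 and 39.9. C2 had the highest of these 5 clusters, at 92.3 (87.1 to 97.9) in the control and 68.2 (64.5 to 71.9) in the irradiated library. The lower value of the irradiated library in C2 went with more Aire (4.90 against 3.76), while Sirt1 was 3.34 against 3.47.

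**Figure D3:**
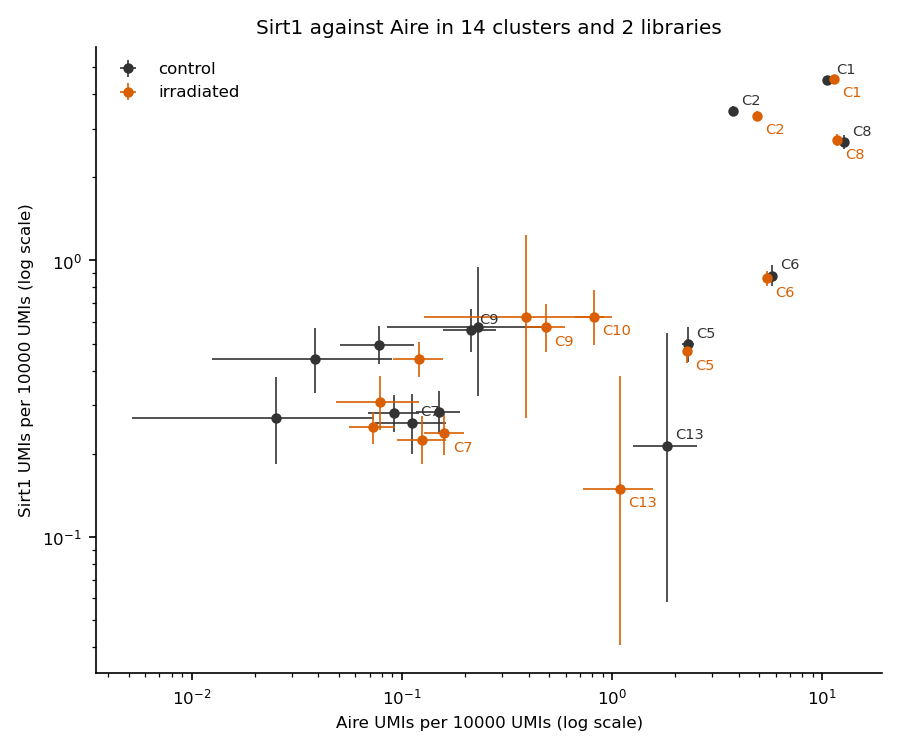
Sirt1 against Aire in 14 clusters and 2 libraries, both as UMIs per 10000 UMIs on log axes, with exact Poisson intervals of 95%. C2 has less Aire than C6 (4.34 and 5.56, both libraries pooled) and more Sirt1 (3.40 and 0.87).

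Within clusters, cells were then ordered by Aire itself. Each cell was binned by the Aire UMIs among its 4000 thinned UMIs, and levels were measured in the UMIs that thinning had left out, so that the bin and the level rest on different molecules. In C2, Sirt1 followed the bins closely. From 0 to 1, 2, 3 to 4 and 5 or more Aire UMIs it was 1.87, 2.93, 5.21, 4.96 and 8.96 in the control library and 1.25, 2.86, 5.14, 5.83 and 7.28 in the irradiated library. The highest bin of C2 was above every bin of C1, where Sirt1 was 3.06 in the control and 3.04 in the irradiated library without thinned Aire UMIs and 4.79 and 4.69 at 5 or more. In C6 it was 0.40 and 0.44 at 0 and 1.08 and 1.58 at 5 or more.

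Cells with 3 or more Aire UMIs were compared with cells that had 0, in the 4 clusters that had 50 or more cells in each bin. Cells with 0 thinned Aire UMIs were not free of Aire. In the held-out UMIs Aire itself was 14.08 against 3.22 in C1 (log2 2.13) and 12.09 against 0.92 in C2 (3.71). In C5 it was 9.19 against 0.66 (3.80) and in C6 9.79 against 1.55 (2.66), so the Aire contrast differed between clusters. Over both libraries Sirt1 was 6.77 against 1.59 in C2 (log2 2.09, 1.92 to 2.27), 1.28 against 0.43 in C6 (1.58, 1.26 to 1.90), 0.75 against 0.40 in C5 (0.91, 0.40 to 1.41) and 4.75 against 3.06 in C1 (0.64, 0.48 to 0.80). It passed a fold of 1.5 upwards in all 4, where 11.4% of all genes did so in C2, 8.13% in C6, 9.41% in C5 and 11.5% in C1. In C1 it fell below the fold under 2 of the alternatives, at 0.51 with bins from 3000 UMIs and 0.55 without the cells with the highest Scrublet scores. Among all genes tested its ratio stood at the 99.3 percentile in C2, 98.3 in C6, 95.8 in C5 and 89.7 in C1. Within the libraries it was 1.93 in the control and 2.38 in the irradiated library in C2, 1.35 and 1.70 in C6, and 0.66 and 0.62 in C1. In C5 the control had too few cells with 3 or more Aire UMIs for a ratio. Of 67 such C5 cells, 54 were irradiated, and the ratio in that library was 0.96 (0.36 to 1.55). The cells with more Aire were deeper in C6 (medians of 29329 and 20240 UMIs), in C5 (21122 and 13689) and in C1 (17007 and 15202.5) but shallower in C2 (12472 and 14496). In C6, 86.0% of them were called G2/M, against 79.3%. In C5, Aire was higher in S phase than in G1 (3.20 and 1.31), and the part of phase in the C5 ratios was not tested.

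**Figure D4:**
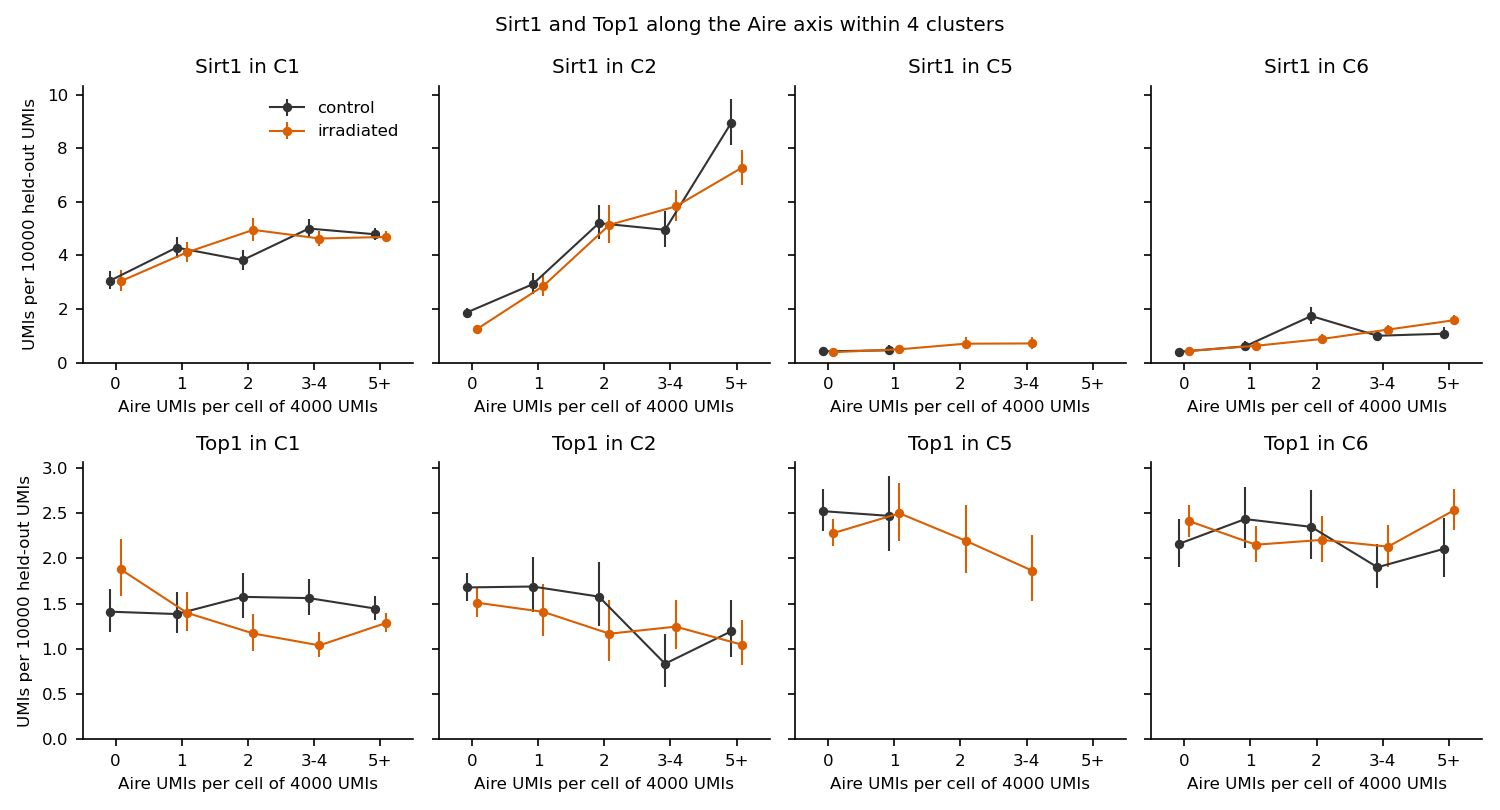
Sirt1 and Top1 along the Aire axis in C1, C2, C5 and C6, as UMIs per 10000 held-out UMIs with exact Poisson intervals of 95%, against the number of Aire UMIs among 4000 thinned UMIs of a cell. Sirt1 in C2 goes from 1.87 to 8.96 in the control and from 1.25 to 7.28 in the irradiated library, and bins with few cells are left out.

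None of the other partners passed the fold in the same direction in these 4 clusters. Top1 had negative log2 ratios in all 4, -0.54 in C2 (-0.83 to -0.26), -0.29 in C1, -0.22 in C5 and -0.08 in C6, none past the fold, and that of C6 ranged from -0.09 to 0.04 over the alternatives. In C1 the libraries differed, with 0.07 in the control and -0.65 in the irradiated library. Chd4 (-0.13, 0.02, -0.13 and -0.33 in C1, C2, C5 and C6) and Kmt2a (0.04, -0.17, -0.56 and -0.05) were below the fold in each. Over the alternatives Kmt2a in C5 ranged from -0.64 to -0.47 and Top1 in C2 from -0.69 to -0.49, so both passed the fold under some. Hipk2 passed it in opposite directions, at 0.73 in C1 (0.43 to 0.71 per 10000) and -0.61 in C2 (0.51 to 0.34). In either direction 31.7% of all genes passed in C1, 28% in C2, 28.1% in C5 and 21.2% in C6, so the 2 Hipk2 calls of its 4 clusters are read against shares of that size. Neither held under every alternative, with ranges of 0.34 to 0.89 in C1 and -0.64 to -0.29 in C2. In the control library alone, Hipk2 in C2 was at -0.31 (-1.07 to 0.39).

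By phase, Sirt1 was higher in G1 than in S in C8 (3.07 and 1.81) and in C2 (3.51 and 2.37). It differed less in C1 (4.56 and 4.17), and in C5 it was lower in G1 (0.39) than in S (0.55). The G1 excess in C8 was seen in the control (2.96 and 2.03) and in the irradiated library (3.15 and 1.68). The 3 genes most like Sirt1 over the 22 points were the long noncoding RNA gene Gm29461 (r = 0.978), 4930520O04Rik (0.974) and Nxpe3 (0.974), none of them on chromosome 10. Gm29461 stood at 2.61 and 2.23 in C1 and at 0.28 and 0.34 in C6. Of the other sirtuins, Sirt4, a mitochondrial member, was also higher in C1 than in C6 (0.29 against 0.10, log2 1.61) and with Aire in C1 (1.03) and C2 (1.27), and 1 of 6 passed between C1 and C6, against 55.5% of all genes, 37% as higher. Sirt2, a mainly cytoplasmic deacetylase, had a ratio of -0.76 (-1.67 to 0.02) with Aire in C5.

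AIRE-dependent antigens gave a point of reference along the same axis. Of 6 genes listed for it, 5 were measured. Csn2, a milk casein, was 1.92 in C6 cells with 3 or more Aire UMIs against 0.29 in those with 0 (log2 2.74), and 0.52 against 0.23 in C5 (1.20), but was below the fold in C1 (-0.10, with 0.22 in the control and -0.44 in the irradiated library) and C2 (0.28). Tff3, a mucosal trefoil peptide, went the other way in C2 (-2.27). Ins2, which encodes insulin, differed between the libraries in C1, at 0.29 (-0.46 to 1.13) in the control and -1.81 in the irradiated library. The latter rests on 89 UMIs in the 73 cells with 0, and their spread over cells was not examined. Tff3 was at -1.19 and -0.54 (-1.23 to 0.23) in C1. Mup4 reached the UMI minimum only in C1, at 0.33 (-0.37 to 1.13). It was -0.22 in the control and 1.00 (-0.14 to 2.52) in the irradiated library. Rbp3 stayed below the minimum in each cluster.

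Chd4 (ENSMUSG00000063870; chromosome 6, 125095981 to 125130591, plus strand in GRCm38) varied by 2.02-fold over the clusters of the control and 2.19-fold over those of the irradiated library. It was highest in the tuft-like C9, at 1.98 and 1.77, among clusters of 100 or more cells per library. It was lowest in C2, at 0.98 and 0.81. C1 (1.24 and 1.08) and C8 (1.27 and 1.08) were close to each other. Pooled, both were at 1.15 (1.11 to 1.19 in C1), below C6 at 1.45 (1.40 to 1.51). The small neuroendocrine-like C12 had 2.23 and 3.05. The genes most like Chd4 were Clcc1 (r = 0.863), Stt3b (0.860) and Fbxl14 (0.856), a weaker likeness than for the other members.

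Of 12 other NuRD genes tested between C1 and C6, 8 were lower in C1 and 0 higher. Of all genes, 18.5% were lower and 37% higher. The list median was -0.77, where the median of all genes was 0.17. C6 had no cell called G1, while most C1 cells were, and the part of phase in these values was not tested. Mbd2, the methyl-CpG-binding subunit, was 0.21 in C1 against 0.51 in C6 (log2 -1.27), and Rbbp7, a histone-binding subunit, 1.39 against 2.31 (-0.73). Between tuft-like C9 and C1, 7 were higher in C9 and 1 lower, against 28.5% and 34.9% of all genes. Mbd2 was 1.23 in C9 against 0.21 (2.54). Along the Aire axis, Mbd2 was lower in cells with more Aire in all 4 clusters, at -1.17 in C1, -1.33 in C2, -0.79 in C5 and -1.24 in C6. Rbbp7 was lower in C1 (-1.05) and C2 (4.42 to 1.65, -1.42) but not in C5 (0.14) or C6 (0.11). Gatad2a, a further subunit, was at -0.94 in C1 and -0.88 in C2. These genes were named for having the largest ratios of their list. Of the NuRD list, 9 of 47 pairs of a gene and a cluster passed the fold downwards on this axis and 0 upwards. Of all genes, 31.7% passed in either direction in C1, 28% in C2, 28.1% in C5 and 21.2% in C6. Upwards alone the shares were 11.5%, 11.4%, 9.41% and 8.13%.

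Kmt2a (ENSMUSG00000002028; chromosome 9, 44803355 to 44881296, minus strand in GRCm38) had its highest level among clusters of 100 or more cells per library in tuft-like C9, at 2.61 in the control and 2.69 in the irradiated library. The neuroendocrine-like C12 was at 3.30 and 3.68, with few cells. The lowest levels were those of C1, at 0.68 and 0.71, and of C8, at 0.69 and 0.86. C6 had 1.15 and 1.12, and cTEC-like cells 1.22 and 1.18. Tuft-like cells were thus higher than C1 by a log2 ratio of 1.92 (1.76 to 2.08), at 1.93 in each library. In that contrast 5 of the 6 members passed a fold of 1.5, with Kmt2a, Chd4 (0.72) and Top1 (0.67) higher and Aire (-5.06) and Sirt1 (-2.99) lower in C9, while 63.4% of all genes passed, 28.5% as higher and 34.9% as lower. Hipk2 was at -0.54. Kmt2a and Chd4 correlated at 0.726 over the 22 points. The genes most like Kmt2a were Terf2 (r = 0.963), a telomere-binding factor, Ethe1 (0.943), a mitochondrial sulfur dioxygenase, and Acsl4 (0.935), a fatty acid ligase. Each was highest in C9, Ethe1 at 6.93 and 9.79.

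Of 12 other genes listed with the MLL family and its complexes, 9 were higher in C9 than in C1 and 0 lower. Of all genes, 28.5% were higher and 34.9% lower. The list median was 0.95, where the median of all genes was 0.00. Between C1 and C6, 0 of the 12 listed genes were higher and 6 lower, against 37% and 18.5% of all genes. Phase also differed between C1 and C6, and its part was not tested. Wdr5, a core scaffold of these complexes, was 0.12 in C1 against 0.31 in C6 (-1.33), and did not differ between C9 and C1 (-0.01, -0.62 to 0.56). Along the Aire axis Wdr5 was at -0.75 and Rbbp5, another core subunit, at -0.66 in C1, with intervals that included 0 (-1.53 to 0.11 and -1.50 to 0.29). Psip1, which tethers these complexes to chromatin, was at 0.63 in C5.

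Hipk2 (ENSMUSG00000061436; chromosome 6, 38694390 to 38876165, minus strand in GRCm38) was highest, among clusters of 100 or more cells per library, in cTEC-like cells, at 0.89 in the control and 0.88 in the irradiated library. C6 had 0.69 and 0.76, C1 had 0.67 and 0.64 and C8 had 0.65 and 0.64. C2 (0.44 and 0.42) and tuft-like C9 (0.47 and 0.42) were lowest among the larger clusters. C1 was higher than C2 by a log2 ratio of 0.60 in each library. The genes most like it were Eprs (r = 0.894), a transfer RNA synthetase, Dmac1 (0.894) and Slc25a4 (0.893), a mitochondrial ADP/ATP carrier. Tbxas1 overlaps Hipk2 on the opposite strand, with 259 UMIs, 210 of them in C1. Hipk1, a related kinase, was 3.07 in tuft-like cells against 0.42 in C1 (log2 2.87), and was lower in cells with more Aire in C1 (-0.79), C2 (-1.05) and C5 (-0.65). In C1, Hipk1 passed the fold in the control (-1.06) but not in the irradiated library.

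In the elongation list, which acts on paused polymerase downstream of AIRE, Hexim1, an inhibitor of the elongation kinase P-TEFb, was lower with Aire in all 4 clusters. Its log2 ratios were -1.95 in C1 (0.63 to 0.16 per 10000), -1.15 in C2, -0.67 in C5 and -1.21 in C6, of which the interval in C5 (-1.90 to 0.34) included 0. In C6 no gene of the list passed the fold in either library alone, where 8 of 9 genes reached the UMI minimum. Hexim1 was named for having the largest ratio of its list, of which 5 of 36 pairs passed downwards and 0 upwards. Polr2a, the largest polymerase II subunit, was at -1.09 in C1. Of the break-sensing genes, Prkdc, which encodes the DNA-dependent protein kinase, was at -0.95 in C1. Parp1 (0.73) and H2afx (0.76) were higher with Aire in C5, as was Top2a (1.39), while Xrcc5 was lower (-0.62). In C5, Aire was 3.20 in S phase against 1.31 in G1, and the part of phase in these C5 ratios was not tested. Among factors reported to interact with AIRE, Daxx was at -0.91 in C1 and Ep300, an acetyltransferase, at -0.85 in C5. Within C1, Daxx passed the fold in the control (-1.23) but not in the irradiated library. Over the 8 lists, 6 of 237 pairs of a gene and a cluster passed the fold upwards and 27 downwards, or 13.9% in all, against 31.7% of all genes in C1, 28% in C2, 28.1% in C5 and 21.2% in C6. Gatad2b was at -0.76 in C5 and Mybbp1a at -0.64 in C1, where Mybbp1a passed in the irradiated library (-0.80) but not in the control. Of further genes named for their list, Top2b, Top3b, Larp7, Dnmt3a, Sirt3, Sirt6 and Hipk3 had largest ratios between -0.46 and 0.57 and none of these passed.

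Summed over whole clusters or over all cells, the 6 genes differed little between the libraries. Levels over all cells were 4.40 in the control and 4.54 in the irradiated library for Aire, 2.06 and 1.93 for Top1, 1.81 and 1.61 for Sirt1, 1.35 and 1.25 for Chd4, 1.13 and 1.08 for Kmt2a and 0.63 and 0.65 for Hipk2. These totals mix the clusters, whose sizes differed. Within the 10 clusters of 100 or more cells per library, 59 of 60 pairs of a member and a cluster had at least 100 UMIs, and 1 passed a fold of 1.5, against 5.36% of all pairs of a gene and a cluster (2.18% higher and 3.17% lower). That pair was Aire in tuft-like cells, 0.21 against 0.48 (log2 1.18, 0.45 to 1.92), which rests on the few cells described above. Without anchors between the libraries its ratio was 0.40. Pairs whose counting range left out 0 numbered 13, with 4 higher and 9 lower in the irradiated library, where 13.6% of all pairs did so, 6.79% higher and 6.83% lower.

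Aire went in different directions in its own clusters. In the irradiated library it was higher in C2 (log2 0.38, 0.27 to 0.49) and in C1 (0.11, 0.05 to 0.16), and lower in C8 (-0.11, -0.18 to -0.04). C6 (-0.08, -0.17 to 0.00) and C5 (-0.02) did not leave out 0. In both, the libraries differed more within some phases, by the main phase calls. In C5, Aire in G1 was 0.77 (0.64 to 0.91) in the control and 1.57 (1.44 to 1.70) in the irradiated library. In S phase it was 3.67 (3.41 to 3.94) and 2.98 (2.82 to 3.15). In C6 it was 5.13 and 3.95 in S and 6.03 and 5.68 in G2/M. The S share of C6 cells was 27.4% and 13.9%. The signs of the whole-cluster ratios held in C1, C2 and C6 under all 11 settings, with values in C2 from 0.30 to 0.51. In C8 the sign held under 10 settings, since no C8 was found at resolution 0.3. The border between C1 and C8 also moved. Without integration they had 965 and 841 cells, and with the members among the clustering genes 824 and 928. The main clusters had 529 control and 784 irradiated cells in C1, and 165 and 326 in C8. Sirt1 had no range that left out 0, with 0.02 in C1, -0.06 in C2 and 0.02 in C8.

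Top1 and Chd4 were each below 0 in 9 of 10 clusters, with medians of -0.16 and -0.15. The median of all genes lay between -0.03 and 0.05 in each cluster. The share of all genes below 0 in as many clusters was not counted. Among all genes tested, Top1 stood between the 11.7 percentile in C0 and the 60.2 percentile in C6. Chd4 stood between the 11.6 percentile in C7 and the 73.6 percentile in C6. For Top1 the range left out 0 in C0 (2.55 against 2.05, log2 -0.31), C1 (-0.17) and C4 (-0.19). For Chd4 it did so in C1 (-0.20), C2 (-0.27), C7 (-0.31) and C8 (-0.24). C6 was the exception for each, at 0.07 and 0.15. Kmt2a was higher in C8 (0.69 against 0.86, log2 0.31) and lower in C0 (-0.24), and Hipk2 had no range without 0. The clusters share the 2 libraries and are not replicates of a condition.

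**Figure D5:**
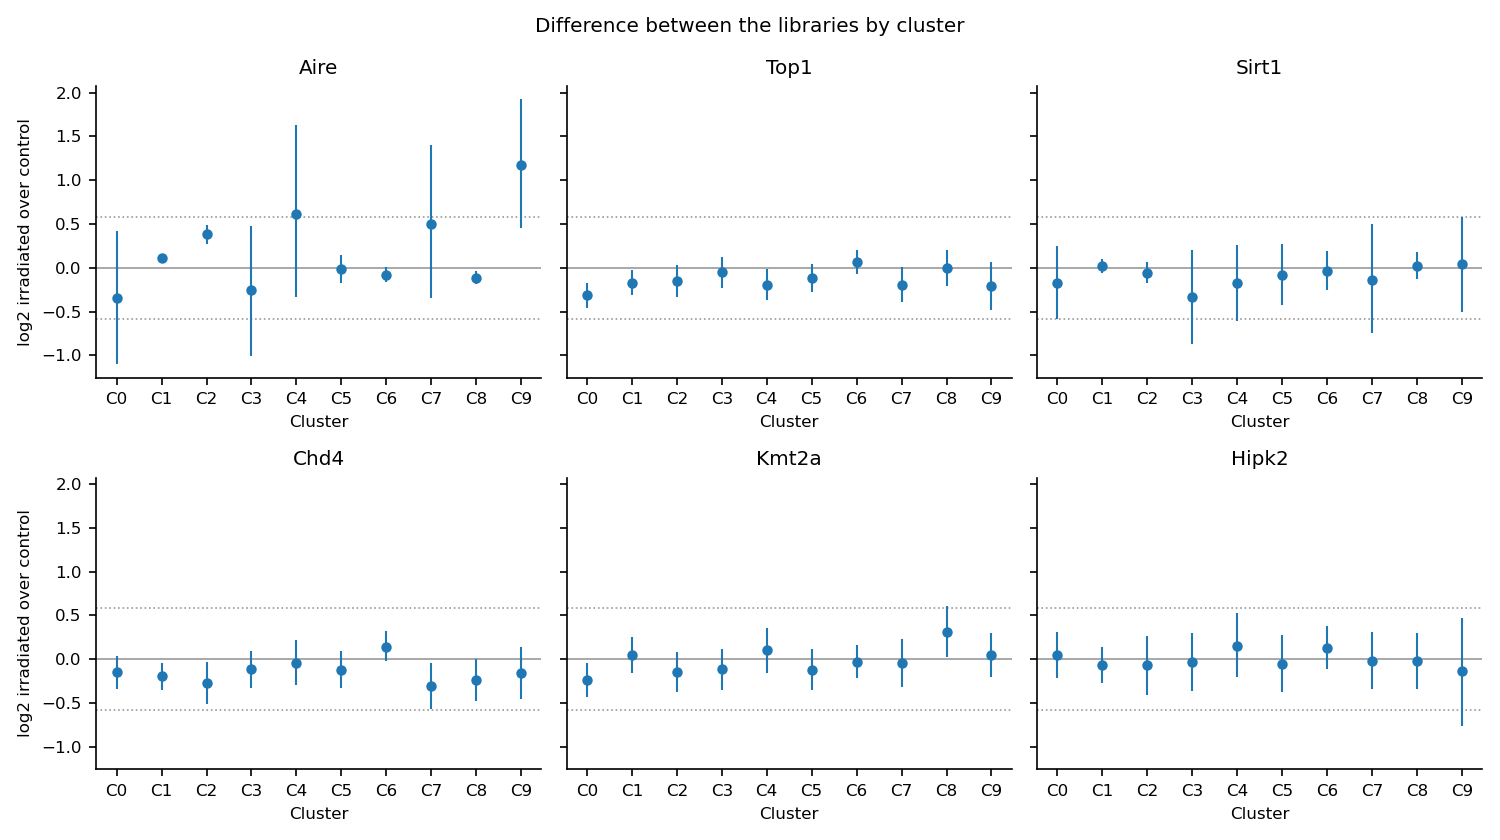
Log2 ratio of irradiated over control UMIs per 10000 for the 6 genes in 10 clusters of 100 or more cells per library. Bars run between the opposite ends of both Poisson intervals, and dotted lines mark a fold of 1.5. Aire in C9, at 1.18, is the 1 tested pair past the fold.

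Of the partner lists, 67 genes were measured, and 2 of 607 pairs of a gene and a cluster passed the fold between the libraries, or 0.33%, against 5.36% of all pairs (2.18% higher and 3.17% lower). These were Setd1a, an H3 lysine 4 methyltransferase, in C0 (0.15 against 0.09, log2 -0.65) and Xrcc6, a DNA end-binding protein, in C8 (0.17 against 0.10, log2 -0.83). Both were lower in the irradiated library.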

How the data were processed

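Droplet scRNA-seq (3′ kit) was performed on sorted TECs, 1 library of 3 pooled mice per condition. After read trimming, the authors ran Cell Ranger on mm10 (5.0.1 per the file header, 5.1 in the submitters' processing notes) and deposited raw UMI counts per gene and called barcode, without normalization. The detected genes of a cell were counted among genes found in at least 5 barcodes of its library, and all genes stayed in the sums. Cells with more than 2000 and fewer than 7500 detected genes and under 15% mitochondrial UMIs were kept, with 51586327 control and 75542631 irradiated UMIs. The 6 genes and the partner lists were chosen with earlier results of these data known.

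Cells were clustered with Seurat 5.3.0 in R 4.3.3 (resolution 0.5, 20 principal components, 3000 variable genes for each library, 2000 anchor genes), leaving out 73 symbols of members and partners. Cluster names came from fixed marker lists. Scrublet in scanpy 1.11.5 called 0.03% and 0.08% of cells, so it did not work, and no doublets were removed. Phases were scored on cells thinned to 4000 UMIs with 43 S and 53 G2/M genes, leaving out 5 shallower cells.

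With 1 library per condition there was no test. Log2 ratios used 0.5 added UMIs, their ranges the opposite ends of both intervals of 95%, and genes with at least 100 UMIs over both groups were read against a fold of 1.5. Levels and ratios were tested on simulated counts. Named genes were the members, the 5 genes most like Aire, the 3 most like each partner (at least 500 UMIs) and of each partner list up to 4 with the largest ratio between libraries or along the Aire axis. Some genes that this rule names are not reported here. Listed antigens and genes compared between clusters were chosen after values were known. Annotation is that of GRCm38. Alternatives changed cell limits, doublets, resolution, integration, clustering genes, denominator, summary over cells, added UMIs, scaling, UMI minimum, thinning, bins and phase calls.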

Additional observations from a re-analysis of the deposited data

How the results depend on the processing

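Small differences changed sign under some alternatives. Between the libraries these were, among others, Aire in C5 (-0.30 to 0.11), Top1 in C8 (-0.13 to 0.03) and Sirt1 in C2, C6, C8 and C9, and along the Aire axis Chd4 in C2 (-0.16 to 0.12) and C5 (-0.28 to 0.06) and Kmt2a in C1 (-0.09 to 0.11). The log2 ratio of Sirt1 in C1 over C6 (2.38) was 2.58 as a mean over cells. Sirt1 along the Aire axis in C2 (2.09) was 2.33 with 5 or more Aire UMIs as the upper bin and 2.37 at resolution 0.3. The 1 member pair past the fold between the libraries became 2 at resolution 1.0, with the members among the clustering genes or with a minimum of 20 UMIs, and 0 without integration or with a minimum of 500 UMIs. The 2 partner pairs became 8 as means over cells or with a minimum of 20 UMIs, 6 under 10% mitochondrial UMIs, 5 without the cells with the highest Scrublet scores, at resolution 1.0 or without integration, 4 above 3000 genes or scaled to the median gene, and 0 with a minimum of 500 UMIs. The share of all genes past the fold was 13.4% with the minimum of 20 UMIs and 2.37% with that of 500. Aire in C1 over C6 (0.99) was 0.70 without integration and 0.66 with the members among the clustering genes. Aire in cTEC-like cells, with 28 control UMIs, ranged from -1.34 to 2.10 between the libraries. In C8, Sirt1 in G2/M over G1 was -0.05 and Aire -0.24 with phases called from summed UMIs. The main calls gave larger falls, from 3.07 in G1 to 2.42 in G2/M for Sirt1 and from 13.4 to 7.78 for Aire. The cause of these changes was not tested. No paired analysis was possible because each condition has 1 library, and for the same reason no replicate could be left out. Differences between the libraries cannot be told apart from differences between the 2 pools, their preparation or their sequencing.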

Other observations

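The small cluster C13, led by genes of ciliated cells (Dynlrb2, Meig1), held 7 control and 13 irradiated cells. Its Aire level was 1.82 and 1.08 UMIs per 10000, and a UMI of Aire was found in 42.9% and 46.2% of its thinned cells. Sirt1 was at 0.21 and 0.15 there, or 11.8 and 13.8 Sirt1 UMIs per 100 Aire UMIs, from 4 Sirt1 UMIs in each library. Kmt2a, at 2.41 and 2.02, was closer to tuft-like cells (2.61 and 2.69) than to C1 (0.68 and 0.71). C11, in which genes of thymocytes appeared together with Psmb11, had 1.78 and 1.66 for Chd4 and 0.90 and 0.75 for Hipk2.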
